A study of Mus musculus with 4 samples.

Results

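Lysozyme and the lysosomal cathepsins are the enzymes with which phagocytes take apart what they have swallowed, and here 8 of their genes were followed through the immune cells of the mouse liver in ConA hepatitis. The genes were Lyz2, Ctsb, Ctsd, Ctss, Ctsl, Ctsz, Ctsc and Lgmn, chosen by name, and all 8 were among the 31053 genes counted in each of 4 single-cell libraries. Their levels were read in cells picked by marker genes as macrophages, monocytes, dendritic cells, neutrophils and B cells, which together made up 4215 of the 9300 cells sequenced. No member was used as a marker.

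The libraries held liver mononuclear cells of C57BL/6 mice aged 8 to 10 weeks, enriched on a Percoll gradient. They came from Naive mice, which received no ConA, and from mice given ConA, a T cell-activating lectin of the jack bean, followed by vehicle (ConA+Veh), by TCDD (ConA+TCDD) or by FICZ (ConA+FICZ), with cells taken 24 hours after ConA. TCDD, a chlorinated dioxin, and FICZ, an indolocarbazole that arises from tryptophan, are both ligands of the aryl hydrocarbon receptor (AhR), and their doses were not compared here. There was 1 library per group, and how many mice each one pooled was not given in the sources used here, so no test between groups was possible and every interval below covers counting error only.

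Lysosomal proteases are made as inactive precursors, carried to the acidic lysosome and activated there by cleavage. Beyond bulk digestion they do particular jobs: cathepsin S trims the invariant chain so that MHC class II molecules can be loaded with peptide, cathepsin C switches on the serine proteases of granules, and legumain cuts other cathepsins into their mature forms. Lyz2 encodes the lysozyme of myeloid cells, which cuts the cell wall of bacteria, and is a standard marker gene of the myeloid lineage.

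A cell entered a gate when UMIs (unique molecular identifiers, which count captured RNA molecules) of at least 2 of a cell type's 7 or 8 markers were found in it and more of that list than of any other. Levels are UMIs of a gene per 1000000 UMIs of the gate (CPM), with exact 95% Poisson intervals. Ratios between libraries are given on the log2 scale with exact binomial intervals, only where both gates had at least 20 cells, and a gene is called past 2-fold when its log2 ratio reached 1 in size with at least 30 UMIs in the pair. Because the assay counts RNA ends without regard to gene length, levels were compared within a gene and not from one gene to another.

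The macrophage gate held, from Naive through ConA+Veh and ConA+TCDD to ConA+FICZ, 4, 61, 9 and 43 cells, the monocyte gate 71, 155, 40 and 157, the dendritic gate 10, 23, 8 and 7, the neutrophil gate 24, 102, 40 and 267, and the B gate 1098, 860, 429 and 807. The libraries held between 1880 and 2779 cells with median depths of 2161 to 3984 UMIs, and pairs of libraries shared between 4 and 15 cell barcodes. The Naive library was the shallowest, and monocyte-gate cells had a median of 3086 UMIs there against 8066, 7645 and 6299 in the ConA libraries. S100a8, a neutrophil gene kept out of the gating, was at 63112 to 91845 CPM in the neutrophil gate against 48.5 to 223 CPM in all other cells. The Kupffer cell markers Vsig4, Clec4f and Timd4 were at 0 in the macrophage gates of Naive and ConA+FICZ.

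The monocyte gate was not 1 cell type, and this touches every result drawn from it. Its 10 leading genes over all libraries held 1 monocyte marker (F13a1) and 3 macrophage markers (C1qa, C1qb, C1qc). The 8 macrophage markers summed to 2262, 4349, 1435 and 6002 CPM in it in the order Naive, ConA+Veh, ConA+TCDD and ConA+FICZ, with Cd5l, Vsig4, Clec4f and Timd4 at 0 in all 4. The 7 granulocyte progenitor markers summed to 214, 484, 1210 and 509 CPM. It is called here the monocyte-marker gate, and the ratios of the members between its libraries are also given for its cells with fewer than 2 macrophage markers, 61 of 71, 52 of 155, 24 of 40 and 50 of 157, a split added after the values were seen. In those cells the macrophage list summed to 79.4, 102, 88.6 and 267 CPM and the progenitor list to 286, 693, 1595 and 235 CPM. What part these shifts had in the results was not tested.

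**Figure D1:**
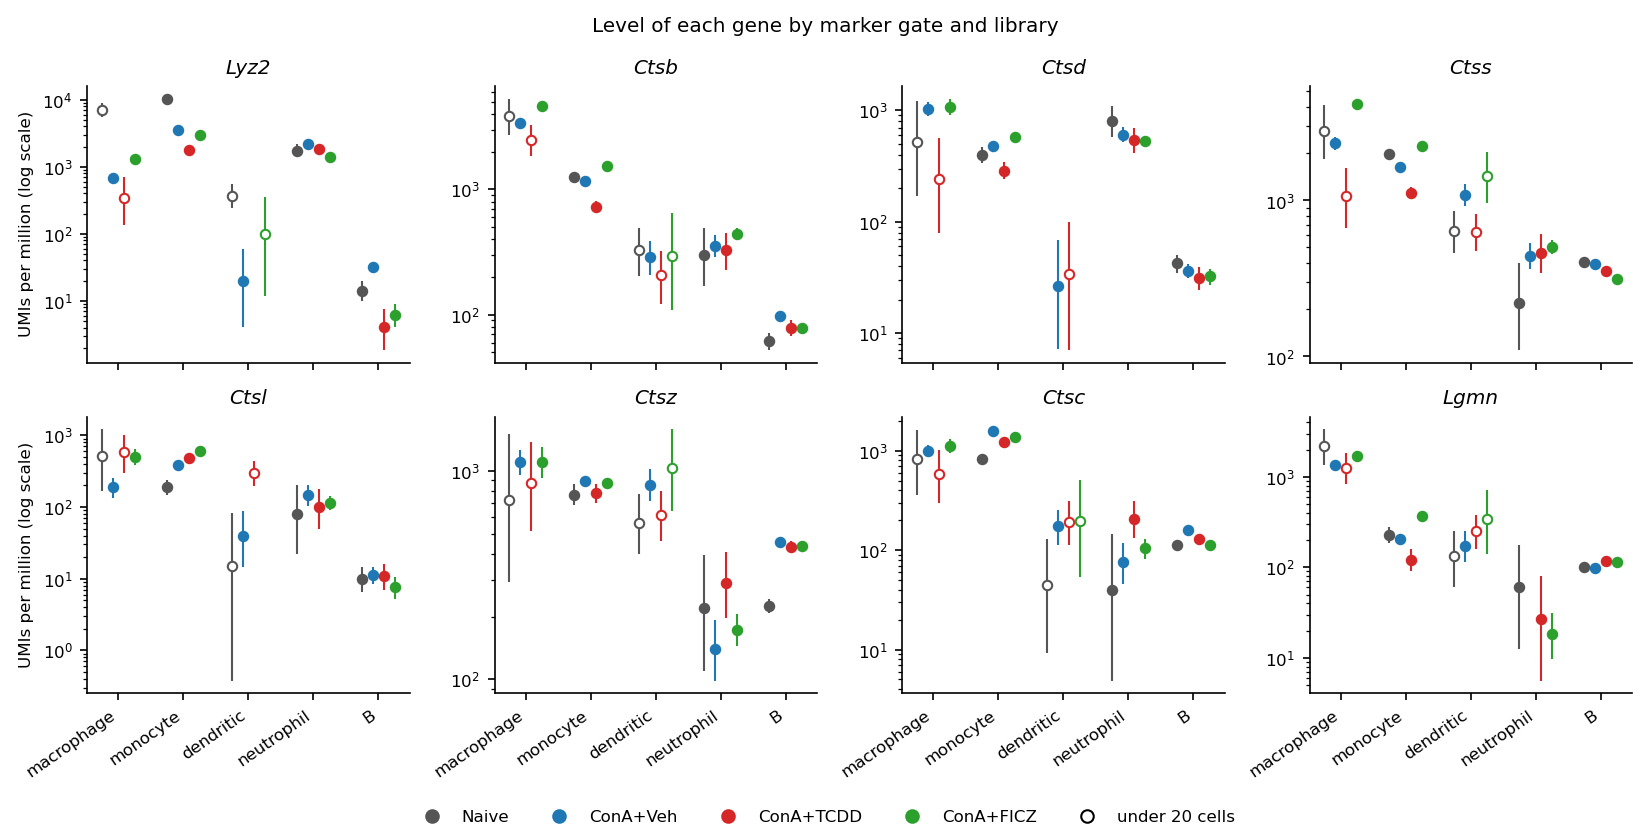
Level in CPM of each of the 8 genes (log scale) in 5 marker gates, 1 point per library with its 95% Poisson interval and open points for gates under 20 cells, where values of 0 are not drawn. Lyz2 lay below 100 CPM in the B and dendritic gates in all but the 10-cell Naive dendritic gate, while Ctsz and Ctss stayed above 200 CPM in B cells of every library.

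Lysozyme was the member with the widest range. Lyz2 (chr10:117277331-117282321, minus strand, mm10) lies 5475 bases from its sister gene Lyz1, whose first 300 transcript bases are 93.6% equal to those of Lyz2 over the paired bases, so reads could be shared between them. Lyz1 itself was listed with 0 to 3 UMIs in every gate described here. The 60 bases shown are taken from the RefSeq promoter windows of both genes (GRCm38.p6, minus strand, 127 to 68 bases before the start), because the sister promoters are also alike, 83.6% over the whole window. Capitals mark ACTTCC, the reverse complement of the ETS core GGAAGT, which PU.1 and its relatives bind and which 19.7% of all 32851 promoters hold on one strand or the other within 250 bases.

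Lyz2, chr10:117282340-117282399: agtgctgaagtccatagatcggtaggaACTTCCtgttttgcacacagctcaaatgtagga
Lyz1, chr10:117292936-117292995: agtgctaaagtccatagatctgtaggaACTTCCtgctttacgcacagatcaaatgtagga

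Lyz2 was at 10075 CPM (9762 to 10396) in the monocyte-marker gate of the Naive library. In the ConA libraries it was at 3486 CPM (3396 to 3578) with vehicle, 1797 CPM (1674 to 1925) with TCDD and 2938 CPM (2849 to 3029) with FICZ. The Naive library stood above all 3 ConA libraries and ConA+TCDD below the other two, with no interval touching another. ConA+Veh against Naive gave a log2 ratio of -1.53 (-1.59 to -1.47), ConA+TCDD against ConA+Veh -0.96 (-1.06 to -0.85), and ConA+FICZ against ConA+Veh -0.25 (-0.30 to -0.19). Counted as UMIs per cell, the ConA+Veh to Naive ratio was -0.58.

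The Naive excess of Lyz2 sat in the cells without macrophage markers. Among cells with fewer than 2 of those markers Lyz2 was at 14275 CPM in Naive against 2657, 1799 and 3778 CPM in ConA+Veh, ConA+TCDD and ConA+FICZ. ConA+Veh over Naive was then -2.43 (-2.53 to -2.32), and ConA+FICZ over ConA+Veh was 0.51 (0.37 to 0.65), the opposite sign to the whole gate. Among the 10 Naive cells with at least 2 macrophage markers Lyz2 was at 2295 CPM, against 3691, 1794 and 2788 CPM in the same cells of the ConA libraries, so there the Naive library was not the highest. In a stricter set, cells with fewer than 2 markers of any other list (49, 36, 12 and 36 cells), the Lyz2 levels were 20020, 1278, 631 and 1626 CPM. The 10 leading genes of this set held 2 monocyte markers in Naive (Ace and F13a1) and 0 in ConA+Veh, ConA+TCDD and ConA+FICZ. Its cells may thus differ in kind between libraries, and what part that had was not tested.

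Single cells showed the same split. In Naive cells with fewer than 2 macrophage markers the median cell held 189 Lyz2 UMIs per 10000, the middle cells ran from 74.0 to 247 (quartiles), and 4 of 61 cells held none. The corresponding medians were 9.33 in ConA+Veh, 8.73 in ConA+TCDD and 13.3 in ConA+FICZ, with 15 of 52, 7 of 24 and 15 of 50 cells at 0. These cells were shallow, with a median of 2713 UMIs in Naive and 3617.5, 5846 and 2998.5 in the ConA libraries. In cells with at least 2 macrophage markers, which were deeper in every library, the Lyz2 medians were 17.9, 28.8, 15.1 and 20.7. The Naive median lay inside the range of the others.

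**Figure D2:**
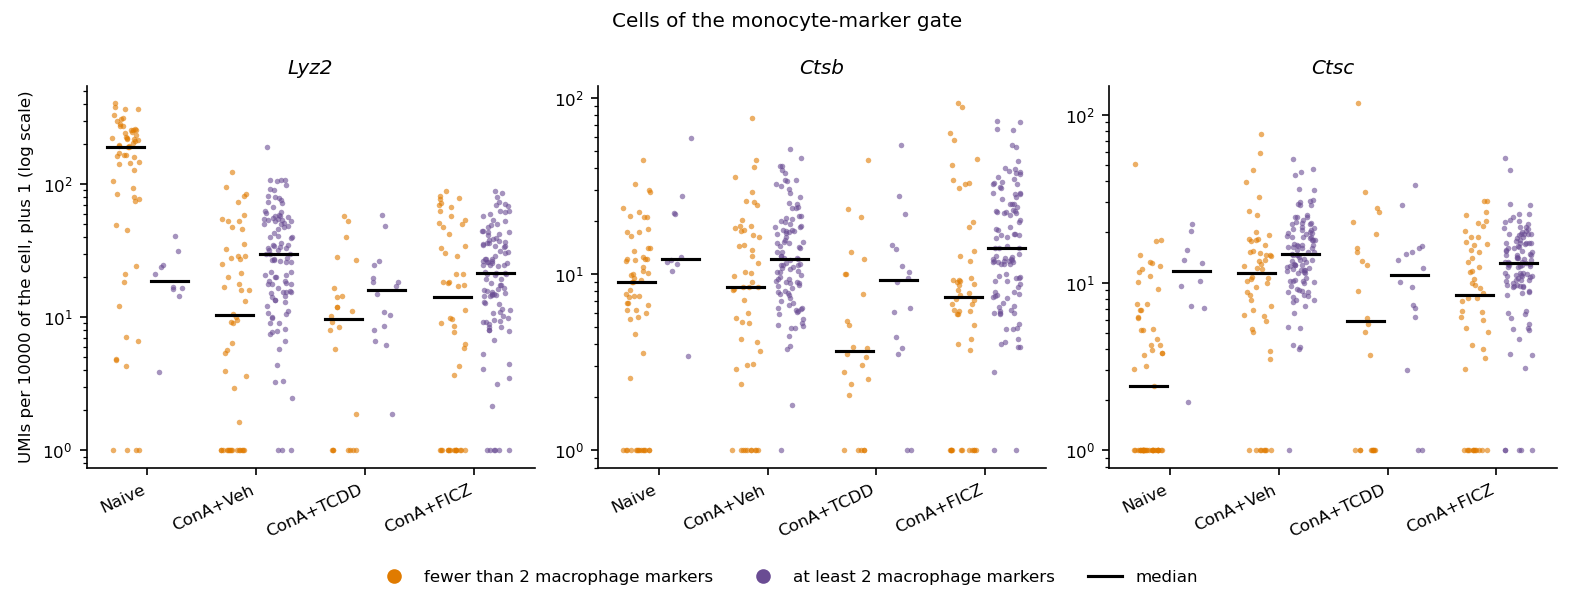
Lyz2, Ctsb and Ctsc in single cells of the monocyte-marker gate, as UMIs per 10000 of the cell plus 1 (log scale), with 1 point per cell, orange for cells with fewer than 2 macrophage markers, purple for the rest, and a bar at the median. The orange Naive cells have a Lyz2 median of 189 per 10000, above the 8.73 to 13.3 of the ConA libraries, whereas their Ctsc median of 1.42 is the lowest of the 4.

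Outside the monocyte-marker gate Lyz2 was read in neutrophils and macrophages. The neutrophil gate held 1744 CPM in Naive, 2194 in ConA+Veh, 1853 in ConA+TCDD and 1380 in ConA+FICZ. ConA+FICZ was the lowest of the 4, at -0.67 (-0.82 to -0.52) against ConA+Veh, and ConA+TCDD was at -0.24 (-0.48 to -0.01). In the 94 ConA+FICZ and 42 ConA+Veh neutrophils with fewer than 2 markers of any other list the ratio was -0.47 (-0.85 to -0.07). It rested there on 147 and 93 UMIs. The macrophage gate held 683 CPM in ConA+Veh and 1291 in ConA+FICZ, a log2 ratio of 0.92 (0.58 to 1.26), which was -0.02 (-0.97 to 0.88) in the 33 and 23 cells with fewer than 2 markers of any other list. Its 4 Naive cells were at 7068 CPM, with 41 of 68 UMIs in 1 cell, and its 9 ConA+TCDD cells at 339 CPM.

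Lyz2 was low in both lymphocyte gates. Its B-gate levels were 14.2, 32.1, 4.05 and 6.23 CPM in the order Naive, ConA+Veh, ConA+TCDD and ConA+FICZ. Cells of the T or NK gate, which should lack the gene, held 3.21, 10.99, 0.95 and 3.28 CPM, and B cells were above it by 2.15 (0.97 to 3.55), 1.55 (1.19 to 1.91), 2.09 (0.50 to 3.75) and 0.93 (0.10 to 1.77) on the log2 scale. With every cell thinned to 1000 UMIs, 0.506% to 0.657% of B cells held a Lyz2 UMI, against 0.118% to 0.773% of cells in the T or NK gate, so no order was read from the shares. A single ConA+Veh cell with 6 monocyte and 7 B markers gave 122 of the 162 Lyz2 UMIs. Without the highest cell of each library and gate the levels were 6.21, 7.95, 2.25 and 3.80 CPM in B cells against 2.76, 7.17, 0.816 and 2.49 CPM in the T or NK gate. The intervals of the B and T or NK gates then overlapped in every library. The ConA+TCDD ratio of 2.09 rested on 9 and 7 UMIs, under the minimum of 30. Plasmacytoid dendritic cells gave 1 Lyz2 UMI over the 4 libraries.

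Ctsb encodes cathepsin B, a cysteine endopeptidase and one of the main proteases of the lysosome (chr14:63122462-63145923, plus strand). Its highest level was in macrophages in every library, at 3846 CPM in the 4 Naive cells and at 3357, 2472 and 4655 CPM in ConA+Veh, ConA+TCDD and ConA+FICZ. Levels in the monocyte-marker gate were 1264, 1168, 723 and 1544 CPM in the same order. ConA+Veh over Naive had an interval that included 0 there (-0.11, -0.26 to 0.03), ConA+TCDD was lower than ConA+Veh (-0.69, -0.87 to -0.52) and ConA+FICZ was higher (0.40, 0.31 to 0.49). Among cells with fewer than 2 macrophage markers the 3 ratios were 0.01 (-0.27 to 0.29), -0.81 (-1.17 to -0.47) and 0.90 (0.65 to 1.15). Neutrophils held 301, 356, 325 and 439 CPM, and B cells 61.2, 96.9, 78.3 and 77.7 CPM. Neutrophil and dendritic levels of Ctsb had overlapping intervals in all 4 libraries.

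Ctsl encodes cathepsin L, another cysteine endopeptidase (chr13:64359337-64370890, minus strand). It was the one member that was lowest in Naive and higher with both AhR ligands than with vehicle in the monocyte-marker gate, at 188 CPM (148 to 237) in Naive, 383 (354 to 414) in ConA+Veh, 476 (414 to 545) in ConA+TCDD and 597 (557 to 639) in ConA+FICZ. ConA+Veh over Naive was 1.03 (0.67 to 1.40), ConA+TCDD over ConA+Veh 0.31 (0.08 to 0.54) and ConA+FICZ over ConA+Veh 0.64 (0.49 to 0.79). All 3 ratios were larger in cells with fewer than 2 macrophage markers, at 1.61 (0.80 to 2.50), 0.76 (0.25 to 1.27) and 1.20 (0.73 to 1.68). In cells with fewer than 2 markers of any other list ConA+Veh over Naive was 1.29 (0.03 to 2.69), from 19 and 8 UMIs. ConA+FICZ over ConA+Veh was 0.67 (-0.31 to 1.65) there, from 20 and 19 UMIs. Cells with at least 2 progenitor markers numbered 37 of 155 in this gate in ConA+Veh and 20 of 157 in ConA+FICZ. In ConA+Veh they gave 2434 of the 5705 Lyz2 UMIs of the gate. For Ctsc they gave 1127 of 2588, for Ctsz 643 of 1464 and for Lgmn 44 of 336. Of the Ctsl UMIs they gave 277 of 627 in ConA+Veh and 274 of 838 in ConA+FICZ. The share of all UMIs of the gate that came from these cells is not given here, so no enrichment is read from these counts. Neutrophils held 80.2 to 147 CPM, and B cells 7.57 to 11.1 CPM, about the 10.1 to 14.3 CPM of the T or NK gate. In the macrophage gate Ctsl was at 187 CPM in ConA+Veh and 501 in ConA+FICZ. The 26 Ctsl UMIs of the ConA+TCDD dendritic gate all came from 1 cell.

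Ctsz encodes cathepsin Z, a carboxypeptidase that removes single residues from the C terminus (chr2:174427493-174439039, minus strand, overlapping Nelfcd on the other strand). In the monocyte-marker gate it was the steadiest member, at 768, 895, 781 and 879 CPM in the usual order of libraries. Its ratios there stayed between -0.19 and 0.22 on the log2 scale in the comparisons with Naive or ConA+Veh. Cells with fewer than 2 macrophage markers gave 0.10 for ConA+Veh over Naive, 0.20 for ConA+TCDD over ConA+Veh and 0.32 (0.04 to 0.60) for ConA+FICZ over ConA+Veh. Macrophages held 728, 1099, 872 and 1103 CPM and dendritic cells 563, 860, 617 and 1035 CPM. In B cells it was at 225 CPM in Naive against 455, 433 and 438 CPM in the ConA libraries.

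Ctsc encodes cathepsin C, the dipeptidyl peptidase that activates granule serine proteases (chr7:88278085-88310888, plus strand, overlapping Gm26522 on the other strand). Its monocyte-marker gate level was 820 CPM (732 to 915) in Naive, below the 1581 (1521 to 1643), 1219 (1119 to 1326) and 1365 (1304 to 1427) CPM of the ConA libraries. ConA+Veh over Naive was 0.95 (0.78 to 1.12), just inside 2-fold, and 1.09 (0.82 to 1.36) in cells with fewer than 2 macrophage markers. Both AhR ligand libraries lay below ConA+Veh, at -0.38 (-0.51 to -0.24) with TCDD and -0.21 (-0.30 to -0.13) with FICZ. In cells with fewer than 2 macrophage markers these ratios were -0.25 (-0.49 to -0.02) and -0.18 (-0.41 to 0.05). Granulocyte progenitors, which make the proteases that cathepsin C activates, held 518, 462 and 630 CPM in the 3 ConA libraries (35, 25 and 12 cells). The neutrophil gate held 40.1 to 208 CPM, and 15 of the 23 Ctsc UMIs in the ConA+TCDD neutrophil gate came from 1 cell.

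Ctss, the cathepsin S gene (chr3:95526786-95556403, plus strand, overlapping Hmgb1-ps5), encodes the protease that trims the invariant chain in antigen-presenting cells. A promoter stretch is shown because it ends at the RefSeq start and holds, in capitals, the core letters of an interferon-stimulated response element, a pair of GAAA runs separated by any 2 bases, which occur on either strand in 2.98% of promoters.

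Ctss, chr3:95526726-95526785, plus strand, GRCm38.p6: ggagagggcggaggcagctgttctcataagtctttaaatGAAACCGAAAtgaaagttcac

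Ctss was at 1993, 1650, 1116 and 2228 CPM in the monocyte-marker gate of Naive, ConA+Veh, ConA+TCDD and ConA+FICZ. ConA+TCDD was the lowest and ConA+FICZ the highest, at -0.56 (-0.70 to -0.43) and 0.43 (0.36 to 0.51) against ConA+Veh. In cells with fewer than 2 macrophage markers the ConA+TCDD ratio was -1.03 (-1.29 to -0.78). The macrophage gate held 2324 CPM in ConA+Veh and 4131 in ConA+FICZ, a ratio of 0.83 (0.65 to 1.01) that was 0.92 (0.55 to 1.29) without cells of a second marker list. Dendritic cells held 637, 1086, 628 and 1429 CPM, of which ConA+Veh alone rested on at least 20 cells. Neutrophils held 221, 443, 461 and 506 CPM and B cells 401, 392, 351 and 314 CPM, and the intervals of these gates overlapped in all libraries but ConA+FICZ, where neutrophils were higher.

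Ctsd encodes cathepsin D, the aspartic endopeptidase of the lysosome (chr7:142375911-142388038, minus strand, overlapping Gm49369 on the same strand). Both of its promoter matches to CACGTG, the E-box core that TFEB and related factors bind, are shown, with the single match of Ctsl beside them. This core is in 6.02% of all promoters, and it also stood 49 bases before the second RefSeq start of Lgmn. The Ctsd stretch nearer the start and the Ctsl stretch lie inside the GENCODE spans given for these genes. The RefSeq starts used for them lie further in. No member's promoter held TGANTCA (AP-1), which 6.75% of promoters hold, or the AhR core TNGCGTG, which 4.10% hold, on either strand within 250 bases. These letter matches say nothing about binding. The C/EBP letters TTGCNNAA, in 9.56% of promoters, matched 114 bases before the start of Ctsl and 209 bases before that of Lyz1, and the ETS core also matched 151 bases before the start of Ctsc. Ctsb had no entry in the RefSeq promoter table used, while the other 7 members matched.

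Ctsd, 250 to 221 bases before the start, chr7:142388048-142388077, minus strand, GRCm38.p6: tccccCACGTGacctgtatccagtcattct
Ctsd, 110 to 81 bases before the start, chr7:142387908-142387937, minus strand, GRCm38.p6: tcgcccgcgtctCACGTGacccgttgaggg
Ctsl, 248 to 219 bases before the start, chr13:64370739-64370768, minus strand, GRCm38.p6: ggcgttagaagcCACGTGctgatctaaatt

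Ctsd was higher in T or NK cells than in B cells. In the T or NK gate it was at 307, 251, 160 and 186 CPM, while B cells held 42.3, 36.5, 31.1 and 32.3 CPM, so the B gate was lower by between 2.36 and 2.86 on the log2 scale in all 4 libraries. Between 43.3% and 68.7% of each library's Ctsd UMIs lay in the T or NK gate, which also held much of all UMIs. Over all cells of the library Ctsd was at 201, 229, 142 and 204 CPM. The T or NK level was thus below the library level in ConA+FICZ and not far above it in ConA+Veh and ConA+TCDD. Neutrophils held 802, 605, 542 and 528 CPM. Neutrophils over the monocyte-marker gate gave 1.01 (0.47 to 1.52) in Naive, 0.32 (0.07 to 0.57) in ConA+Veh, 0.92 (0.45 to 1.37) in ConA+TCDD and -0.13 (-0.32 to 0.04) in ConA+FICZ.

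In the monocyte-marker gate Ctsd was at 397, 483, 287 and 579 CPM. ConA+TCDD over ConA+Veh was -0.75 (-1.03 to -0.48) and ConA+FICZ over ConA+Veh 0.26 (0.12 to 0.40), and with fewer than 2 macrophage markers these were -0.91 (-1.49 to -0.36) and 0.61 (0.20 to 1.02). ConA+Veh over Naive was 0.28, and 0.76 (0.25 to 1.29) in those cells. Macrophages held 1028 CPM in ConA+Veh and 1080 in ConA+FICZ, with a ratio whose interval included 0.

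Lgmn encodes legumain, an asparaginyl endopeptidase (chr12:102394084-102439813, minus strand). Macrophages and neutrophils lay far apart for it: macrophages held 2183, 1357, 1260 and 1706 CPM, and the neutrophil gates gave 3, 0, 3 and 13 UMIs in all. The 0 of 102 ConA+Veh neutrophils allowed up to 11.3 CPM at 3 counts. In the monocyte-marker gate Lgmn was at 230, 205, 121 and 369 CPM. ConA+FICZ over ConA+Veh was 0.85 (0.65 to 1.05), and 1.39 (0.78 to 2.03) in cells with fewer than 2 macrophage markers. ConA+TCDD over ConA+Veh was -0.76 (-1.20 to -0.34), and -0.84 (-1.84 to 0.09) in those cells, which gave 14 UMIs in ConA+TCDD.

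The UMIs of all 8 genes together made 15736 CPM of the monocyte-marker gate in Naive and 9852 CPM in ConA+Veh, and without Lyz2 5660 and 6366 CPM. Of the 8 genes 2 were past 2-fold, Lyz2 lower and Ctsl higher in ConA+Veh, where 15.4% of all genes tested were past 2-fold in either direction. The member median was 0.05 and that of all genes -0.08. In cells with fewer than 2 macrophage markers 3 members were past 2-fold, with Ctsc added on the higher side, beside 18.3% of all genes. Without the cells carrying Ace or Treml4, which mark the non-classical monocytes, all 8 ratios kept their direction.

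ConA+TCDD over ConA+Veh put 7 of 8 members below 0 in the monocyte-marker gate, with Ctsl as the exception. None was past 2-fold, where 7.83% of all genes were. The member median was -0.63 and that of all genes -0.03. In cells with fewer than 2 macrophage markers only Ctss was past 2-fold, beside 8.23% of all genes, and Ctsz had the other sign, at 0.20 (-0.08 to 0.48). The macrophage list was at 4349 CPM in ConA+Veh and 1435 CPM in ConA+TCDD, the progenitor list at 484 and 1210 CPM, and 9 cells of the ConA+TCDD library were in the macrophage gate. The lower values were not particular to this gate. In T or NK cells 0 of 8 members were above 0, with a median of -0.51 against -0.06 for all genes. B cells had 1 of 8 above 0 (-0.19 against 0.02) and plasmacytoid dendritic cells 1 of 5 tested (-0.66 against 0.00). Neutrophils had 3 of 7 (-0.13 against 0.08) and granulocyte progenitors 5 of 7 (0.26 against -0.05).

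ConA+FICZ over ConA+Veh, which shares its control with the TCDD comparison, put 5 of 8 members above 0, with a median of 0.33 against 0.11 for all genes. Again none was past 2-fold, beside 5.06% of all genes, and Lyz2, Ctsz and Ctsc were below 0. In cells with fewer than 2 macrophage markers Ctsl and Lgmn were past 2-fold, beside 13.5% of all genes, and only Ctsc was below 0. When the macrophage and monocyte-marker gates were joined with the cells tied between them (76, 245, 53 and 222 cells), Lyz2 was at 9904, 3098, 1703 and 2786 CPM, and its ratios to ConA+Veh were -0.86 (-0.97 to -0.76) with TCDD and -0.15 (-0.21 to -0.10) with FICZ.

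The AhR ligands were also set against each other, as values of 1 library each at the doses the study used. All 8 members were higher in ConA+FICZ than in ConA+TCDD in the monocyte-marker gate, with a member median of 0.85 against 0.15 for all genes. Lgmn at 1.61 (1.20 to 2.04), Ctsb at 1.09 (0.92 to 1.27) and Ctsd at 1.01 (0.74 to 1.29) were past 2-fold, beside 12.6% of all genes. Ctss lay just inside, at a fold of 1.997. With median-of-ratios scaling 1 member was past 2-fold, and as UMIs per cell Ctsz and Ctsc were at -0.15 each. Ctsl at 0.33, Ctsz at 0.17 and Ctsc at 0.16 differed little. In cells with fewer than 2 macrophage markers 5 members were past 2-fold, Lyz2 and Ctss being added, beside 20.5% of all genes, and Ctsl, Ctsz and Ctsc had intervals that included 0.

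**Figure D3:**
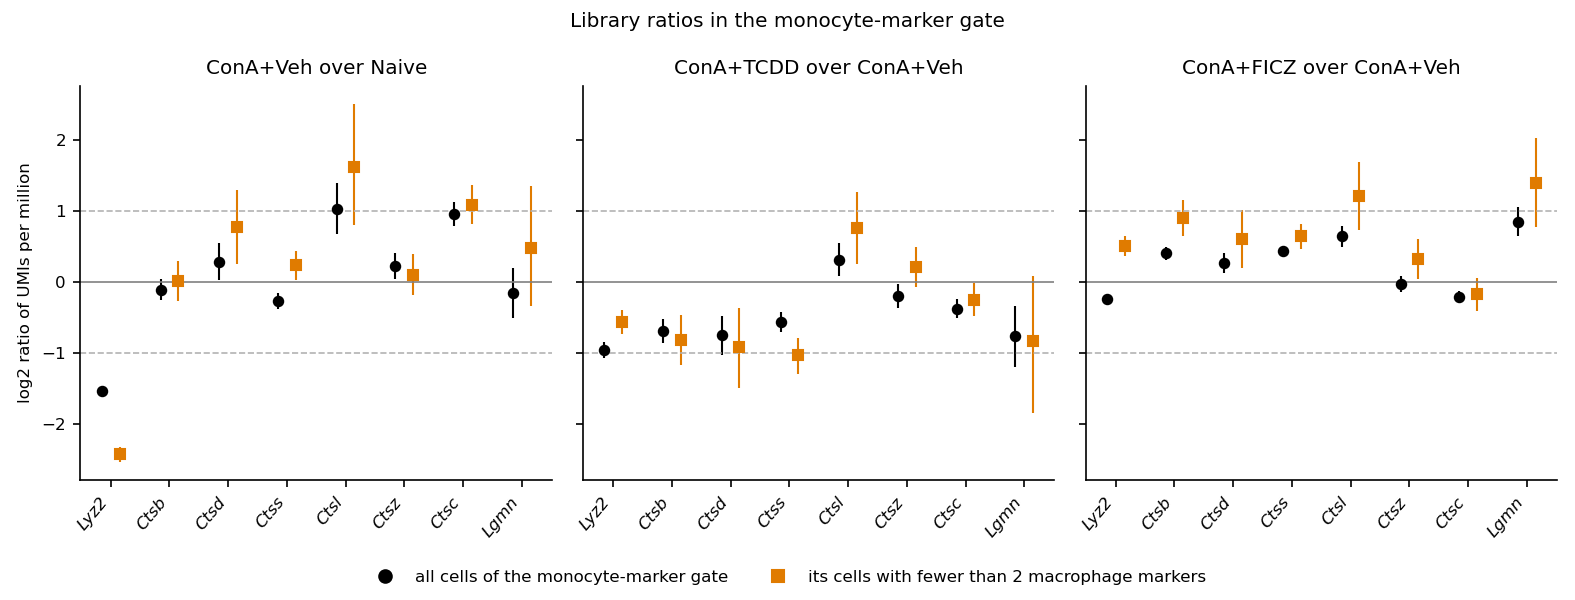
Log2 ratio of CPM for the 8 genes in 3 library comparisons, in all cells of the monocyte-marker gate (black) and in its cells with fewer than 2 macrophage markers (orange), with 95% binomial intervals and dashed lines at 2-fold. Lyz2 lies at -1.53 and -2.43 in ConA+Veh over Naive, and ConA+TCDD over ConA+Veh places every member but Ctsl below 0 in all cells of the gate.

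Within the monocyte-marker gate Ctsl, Lgmn, Ctsd, Ctsb and Ctsc were higher in cells with at least 2 macrophage markers than in the rest in all 4 libraries, and Lyz2 was so in ConA+Veh only. The 2 sets also differed in depth. Median UMIs were 11479, 9946, 11003.5 and 8159 in cells with at least 2 macrophage markers, in the usual order of libraries. They were 2713, 3617.5, 5846 and 2998.5 in the rest. What part depth had in these differences was not tested. In Naive, cells with at least 2 macrophage markers exceeded the rest by 2.72 for Ctsl, 2.68 for Lgmn, 2.08 for Ctsd and 1.56 for Ctsb on the log2 scale, while Lyz2 was at -2.64 (-2.81 to -2.47). In ConA+Veh the same differences were 1.15, 1.05, 0.73 and 0.75, and Lyz2 was at 0.47 (0.37 to 0.58). In ConA+TCDD they were 0.94, 1.55, 1.28 and 1.25, with Lyz2 at -0.00 (-0.21 to 0.20). In ConA+FICZ they were 0.49, 0.40, 0.30 and 0.16, the last with an interval of -0.02 to 0.34, and Lyz2 was at -0.44 (-0.55 to -0.33). Ctsc was higher by 0.98, 0.35, 0.31 and 0.29 in Naive, ConA+Veh, ConA+TCDD and ConA+FICZ, with every interval above 0. Ctsz differed by no more than 0.40 in size in any library. Ctss changed sign, at 1.25, 0.08 (-0.06 to 0.22), 0.93 and -0.17 (-0.31 to -0.03) in the usual order of libraries.

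The macrophage gate set against the monocyte-marker gate had Lgmn at the upper end and Lyz2 at the lower end in both libraries that allowed it. The macrophage gate was the shallower, with median depths of 1878 UMIs in ConA+Veh and 1693 in ConA+FICZ, against 8066 and 6299. In ConA+Veh Lgmn was higher in macrophages by 2.72 (2.49 to 2.96), Ctsb by 1.52 (1.39 to 1.65) and Ctsd by 1.09 (0.86 to 1.31), and Lyz2 was at -2.35 (-2.61 to -2.10) and Ctsl at -1.03 (-1.55 to -0.55). These 5 members were past 2-fold beside 17.8% of all genes. The 52 shallowest monocyte-marker cells of ConA+Veh had a median of 2373 UMIs. They held Lgmn at 440, Ctsb at 1453, Ctsd at 496, Lyz2 at 1788 and Ctsl at 244 CPM. The macrophage gate held 1357, 3357, 1028, 683 and 187 CPM. In ConA+FICZ Lgmn was at 2.21, Ctsb at 1.59 and Lyz2 at -1.19, which made 3 members past 2-fold beside 20.2% of all genes. Its 53 shallowest monocyte-marker cells (median 2030 UMIs) held Lgmn at 565, Ctsb at 1754 and Lyz2 at 1923 CPM. The macrophage gate held 1706, 4655 and 1291 CPM. Against the shallowest cells each of these differences kept its direction but was narrower than against the whole gate. Whether the members stayed past 2-fold at like depth was not tested.

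Between libraries the macrophage gate could be compared for ConA+FICZ and ConA+Veh only. All 8 members were above 0, from 0.01 for Ctsz to 1.42 (0.81 to 2.04) for Ctsl, and Ctsl alone was past 2-fold, beside 9.63% of all genes. Ctsd and Ctsz were at -0.01 and -0.07 with median-of-ratios scaling, and Lyz2 was at -0.65 where the gate was drawn on thinned cells. In cells with fewer than 2 markers of any other list Ctsl was at -0.15 (-1.82 to 1.32) and Ctsc at -0.53 (-1.26 to 0.15), while Ctss at 0.92 and Lgmn at 0.72 (0.23 to 1.21) were as high as in all cells or higher.

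Neutrophils gave small counts for most members. In ConA+Veh over Naive Ctss was past 2-fold at 1.01 (0.11 to 2.05), from 11 UMIs in Naive, and this was 1 of the 6 members with enough UMIs, beside 23.6% of all genes. In ConA+TCDD over ConA+Veh Ctsz at 1.05 and Ctsc at 1.46 made 2 of 7, beside 16.3% of all genes. A single cell gave 19 of the 32 Ctsz UMIs of ConA+TCDD, and a single cell 15 of the 23 Ctsc UMIs. As a mean of per-cell levels Ctsz was at -0.16. All 8 macrophage markers were at 0 in that gate, and the progenitor list was at 90.4 CPM against 94.6 in ConA+Veh. ConA+FICZ over ConA+Veh had 0 of 7 members past 2-fold, beside 11.4% of all genes, and ConA+FICZ over ConA+TCDD also 0 of 7, beside 26.3%.

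B cells and T or NK cells differed in the members they held. Relative to the T or NK gate of the same library, Lgmn was higher by 4.23 to 5.87 on the log2 scale, Ctss by 2.66 to 3.33, Ctsz by 2.33 to 2.61 and Ctsc by 0.92 to 1.22. For Lyz2 the intervals of these gates overlapped without the highest cell of each, as given above. Relative to the monocyte-marker gate the same genes were lower in B cells, with Ctss at -2.83 to -1.67, Ctsc at -3.59 to -2.85, Ctsz at -1.77 to -0.85 and Lgmn at -1.70 to -0.03, the last with an interval that included 0 in ConA+TCDD. Against the T or NK gate, Ctsb was lower in B cells by between 0.79 and 0.82, and the intervals of Ctsl included 0 in every library. Against the monocyte-marker gate, B cells were at -4.37 to -3.21 for Ctsb and at -6.30 to -4.26 for Ctsl. With cells thinned to 1000 UMIs, 30.9% to 37.7% of B cells held a Ctss UMI against 3.76% to 6.76% of T or NK cells. For Lgmn the B shares were 8.83%, 9.49%, 13.9% and 11.7% against 0.235% to 0.681%. Median depths before thinning were 2135 to 4223.5 UMIs in B cells and 2476 to 5515.5 UMIs in the T or NK gate.

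The B-cell level of Ctsz set Naive apart from the ConA libraries. ConA+Veh over Naive was 1.02 (0.89 to 1.15), and 0.97 (0.83 to 1.11) in B cells with fewer than 2 markers of any other list. Thinned shares were 18.5% (16.2 to 21.0) in Naive and 33.2% (29.9 to 36.6), 26.5% (22.2 to 31.2) and 30.6% (27.3 to 34.0) in the ConA libraries. In the T or NK gate the same comparison of Ctsz gave 0.90 (0.60 to 1.22). Ctss differed by -0.03 (-0.14 to 0.07) between ConA+Veh and Naive B cells and Lgmn by -0.04 (-0.26 to 0.18).

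Past 2-fold in B cells were Lyz2 and Ctsz in ConA+Veh over Naive, beside 25.4% of all genes. In ConA+TCDD over ConA+Veh Lyz2 alone was so, on the lower side, where 3.0% of all genes were, and likewise in ConA+FICZ over ConA+Veh, where 1.97% were. The single ConA+Veh cell described above is in the denominator of both, and in cells with fewer than 2 markers of any other list the ratios were -0.20 (-1.61 to 1.07) and -0.94 (-2.22 to 0.25), from 18 UMIs or fewer in each library. No member passed in ConA+FICZ over ConA+TCDD, beside 4.67%. Each of the 7 protease genes stayed within 2-fold between the B gates of the ConA libraries, with Ctsc at -0.49 (-0.65 to -0.33) and Ctss at -0.32 (-0.42 to -0.22) in ConA+FICZ over ConA+Veh.

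**Figure D4:**
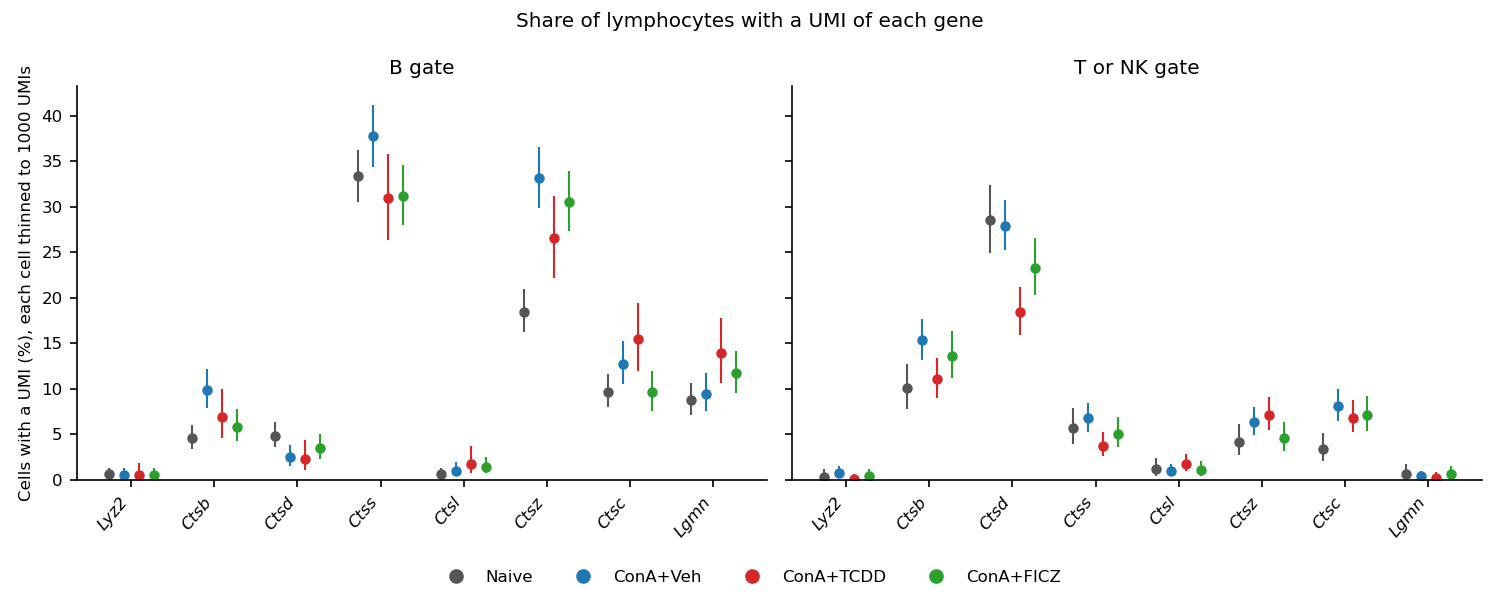
Percent of cells with at least 1 UMI of each gene after every cell was thinned to 1000 UMIs, in the B gate (left) and the T or NK gate (right), 1 point per library with its 95% binomial interval. Ctss, Ctsz, Ctsc and Lgmn stand above the T or NK shares in B cells, Ctsd and Ctsb stand below them, and Lyz2 is at 0.118% to 0.773% in both.

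Conventional and plasmacytoid dendritic cells, both antigen-presenting, differed in the cathepsins they held. In ConA+Veh, where each gate had at least 20 cells, Ctsb was at 287 CPM in the dendritic gate and 2604 CPM in the plasmacytoid gate, and Ctsl at 40.0 and 1411 CPM. Ctss, at 1086 and 1172 CPM, and Ctsz, at 860 and 965 CPM, had overlapping intervals. Plasmacytoid cells also exceeded the monocyte-marker gate for Ctsl by 1.88 (1.60 to 2.15) in ConA+Veh and by 1.88 (1.35 to 2.41) in Naive. In ConA+TCDD the excess was smaller, at 0.90 (0.55 to 1.24).

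The other genes of the lysosome, from lists of hydrolases, membrane proteins, proton pump subunits, inhibitors and sorting factors, were read in all cells of the monocyte-marker gate, and were not split by macrophage markers. As for the members, 15.4% of all genes were past 2-fold in ConA+Veh over Naive. In ConA+Veh over Naive 0 of 25 hydrolases were past 2-fold on the higher side and 2 on the lower, Man2b1 at -1.19 and Ids at -1.80, and Glb1 at 0.30 and Tpp1 at 0.27 were the highest. Of 15 membrane proteins Cd63 was past 2-fold at 1.82 (0.85 to 2.98), followed by Lamtor2 at 0.58, and Laptm5 at -1.0 (-1.16 to -0.84) was the lowest, before Mcoln1 at -0.54. None of 13 proton pump genes was, from Tcirg1 at -0.60 and Atp6v1e1 at -0.44 to Atp6v1a at 0.63 and Atp6v0c at 0.99.

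Inhibitors of the cathepsins were past 2-fold on the higher side in ConA+Veh for 2 of the 4 tested. Cst7, the gene of cystatin F, was at 3.57 (1.02 to 8.90) from 50 UMIs against 1, and Serpina3g was at 1.59 (0.49 to 2.95). Cstb was at 0.89 and Cst3, cystatin C, at -0.08. Among 8 sorting and transcription genes Tfeb, a regulator of lysosomal genes, was at -1.20 (-1.87 to -0.51) and Spi1, which encodes PU.1, at -0.65, with M6pr at 0.16 and Mitf at 0.12 the highest. Of the remaining cathepsins Ctsa was just inside 2-fold (-1.28 to -0.71), Ctsh at 0.02 and Ctsg at 0.24.

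With TCDD 20 of 24 hydrolases were below 0 against ConA+Veh, with a median of -0.36 against -0.03 for all genes. How many of all genes were below or above 0 was not counted, here or in the comparisons with FICZ. Past 2-fold lower were 3 hydrolases, where 7.83% of all genes were past it in either direction. Among them were Neu1 at -1.87 and Acp5 at -1.50, from 5 UMIs each in ConA+TCDD. Tpp1 was at 0.16. The membrane transporter Slc11a1 was at -2.20 (-3.17 to -1.36) and Slc15a3 at -0.90, with Cd63 at 0.67 and Cd164 at 0.38. No proton pump gene passed, from Atp6v1a at -0.63 and Atp6ap1 at -0.50 to Atp6v1b2 at 0.05 and Atp6v1e1 at 0.08. The inhibitors Serpinb1a at 1.32 and Cst7 at 1.19 were past 2-fold, Cstb was at -0.45 and Cst3 at -0.56. Mitf at -1.54, from 3 UMIs, Cebpb at -0.61, Tfe3 at 0.12 and Gnptg at 0.58 were the ends of the sorting and transcription list, and Ctsa, Ctsh and Ctsg were at -0.25, -0.22 and 0.29. Hydrolases were mostly below 0 in both lymphocyte gates too. Those above 0 were 4 of 29 in T or NK cells, with a median of -0.34 against -0.06 for all genes. In B cells they were 6 of 25, with a median of -0.22 against 0.02.

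With FICZ 21 of 27 hydrolases were above 0 against ConA+Veh, with a median of 0.33 against 0.11 for all genes. Acp5 at 1.22 (0.73 to 1.73) was past 2-fold, where 5.06% of all genes were, followed by Gaa at 0.93. Hexa at -0.14 was the lowest. No membrane protein passed, with Cd63 at 0.90, Slc15a3 at 0.48, Cd164 at -0.18 and Tmem192 at -0.34, nor did a proton pump gene, with Tcirg1 at 0.61, Atp6v1h at 0.40, Atp6v0c at -0.24 and Atp6v0e at -0.26. Serpinb1a was at -1.25, Cst7 at -0.84, Cstb at 0.16 and Serpina3g at 0.89. Gnptab and Tfeb were both at 0.22, M6pr at 0.08 and Cebpb at -0.40, and Ctso, Ctsg, Ctsa and Ctsh were at 0.40, 0.25, 0.24 and 0.07.

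**Figure D5:**
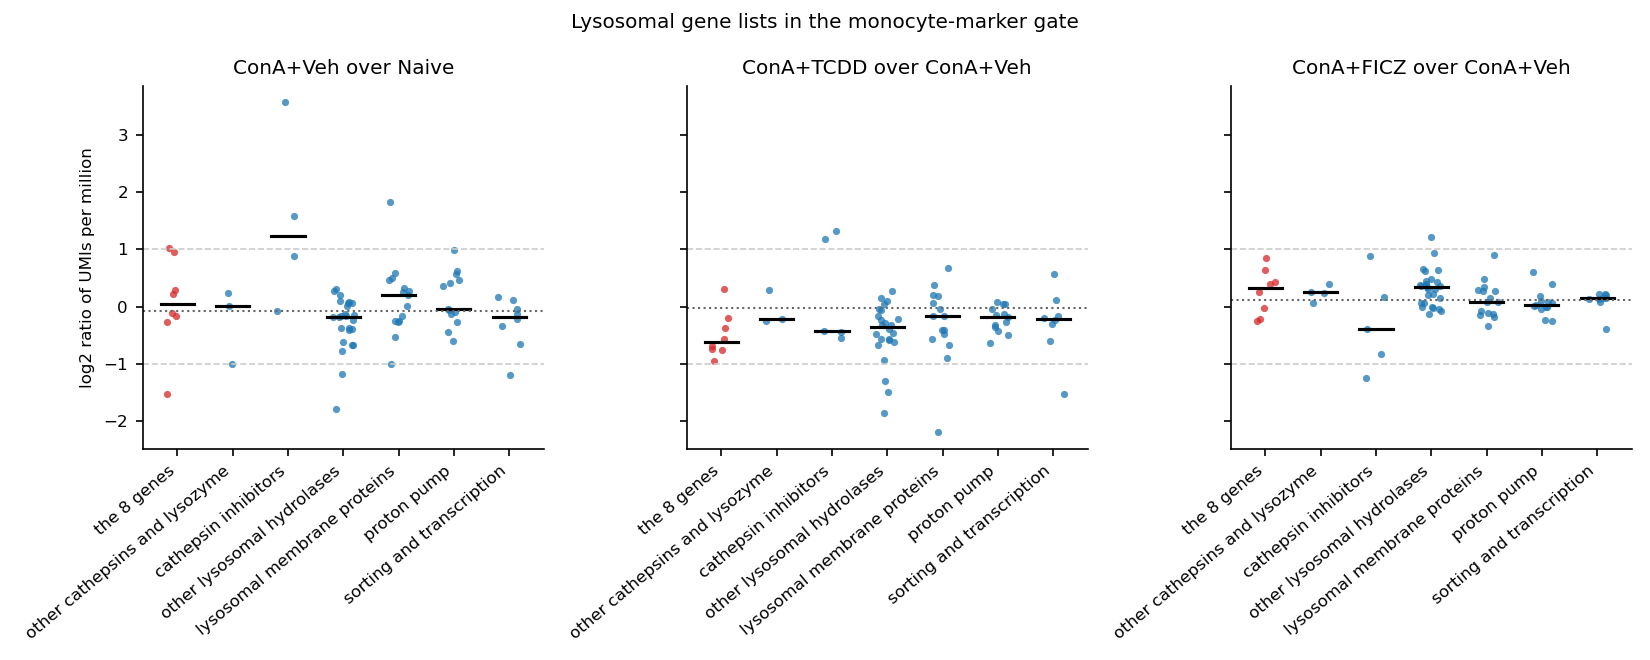
Log2 ratio of CPM in the monocyte-marker gate for each tested gene of 7 lysosomal lists in 3 library comparisons, with a bar at each list's median, a dotted line at the median of all genes and dashed lines at 2-fold. The median of the 8 genes is 0.05 for vehicle against Naive, -0.63 for TCDD against vehicle and 0.33 for FICZ against vehicle, and that of the other hydrolases is -0.18, -0.36 and 0.33.

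Set directly against TCDD, FICZ had all 25 tested hydrolases above 0, of which 6 were past 2-fold, where 12.6% of all genes were, with Acp5 at 2.72 and Neu1 at 1.86 the highest, while Pla2g15 was at 0.17. The median was 0.54 against 0.15 for all genes. Slc11a1 at 2.48 and Slc15a3 at 1.38 were past 2-fold among the membrane proteins, with Cd164 at -0.56 and Tmem192 at -0.52 the lowest. Serpina3g at 1.31, Cst7 at -2.03 and Serpinb6a at -2.20 passed among the inhibitors, and Cstb was at 0.61. The 13 proton pump genes all stayed within 2-fold, from Atp6v1e1 at -0.02 and Atp6ap2 at 0.04 to Atp6v1a at 0.62 and Tcirg1 at 0.80, Mitf was at 1.67, Gnptab at 0.53, Tfe3 at 0.02 and Gnptg at -0.43, and Ctsa, Ctsh and Ctsg were at 0.50, 0.28 and -0.04.

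In the macrophage gate ConA+FICZ over ConA+Veh put 1 of 15 hydrolases past 2-fold, a gene not named here, beside 9.63% of all genes. Grn, the progranulin gene, was at 0.86 and Ppt1 at -0.67. Slc11a1 at 1.14, Cd63 at 1.0 (0.35 to 1.66) and Cd164 at -1.15 passed among 11 membrane proteins, and Lamtor1 was at -0.80. Proton pump genes ran from Atp6v1f at -0.61 and Atp6ap2 at -0.51 to Atp6v1b2 at 0.66 and Tcirg1 at 0.69. Cstb, Cst3, Ctsa and Ctsh were at 0.16, 0.04, 0.51 and -0.23, and Spi1, Cebpb and M6pr at 0.49, 0.01 and -0.07. The member median was 0.40 there, beside -0.01 for all genes.

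The genes whose levels most resembled each member's were found over 15 gate-by-library sums with at least 20 cells, among 4548 genes, by Pearson correlation of log2(CPM + 10), a description of points that share libraries. Lyz2 was followed most closely by Adssl1 (0.98), Ggh and Xdh (0.97 each), Ctsb by Grn and Metrnl (0.98 each) and Tmem106a (0.97), and Ctsd by Tgm2, Fcgr4 (0.99 each) and Pla2g7 (0.98). Next to Ctss were Aif1 (0.97), Anxa5 (0.96) and Lrp1 (0.95), and next to Ctsl were Tgfbi, Fcgr1 (0.96 each) and Pnp (0.95). Ctsz was closest to Tmem208 (0.97), Hsp90b1 and Tbcb (0.96 each), Ctsc to Ms4a6b (0.98), Sec61g (0.97) and Lrpap1 (0.96), and Lgmn to Nus1, Fam50a (0.93 each) and Ctsa (0.92). No gene was among the 3 nearest of more than 1 member.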

How the data were processed

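Liver mononuclear cells of 4 groups were profiled with the 10x Genomics 5′ assay. The authors aligned reads to mm10 with Cell Ranger 3.0.2 and deposited raw UMI counts per gene and cell. No column of another sample was present. Gene positions are from GENCODE M21. Cells were gated on marker lists (at least 2 markers, more than of any other list; ties unassigned, no doublet caller), and counts were summed per gate and library. Computation used Python 3.11.15, numpy 2.4.6, scipy 1.17.1 and matplotlib 3.10.9, with seed 1 for thinning, and was tested on simulated data. With 1 library per group no test was run. Members and lists were chosen with earlier results of these data known. Of each other list, up to 2 genes with the highest and 2 with the lowest ratios were named in the macrophage and monocyte gates, and for each member the 3 genes of most like pattern. Some genes that this rule names are not reported here. Alternatives changed the gate, the cell filter, thinning, the scaling and the minimum of 30 UMIs.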

Additional observations from a re-analysis of the deposited data

Results flagged for a closer look

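The log2 ratio of Lyz2 went in opposite directions in different gates of the same libraries in 3 cases, and none of these differences was tested. In ConA+Veh over Naive it was 1.18 in the B gate and -1.53 in the monocyte-marker gate. The B value became -0.35 in cells with fewer than 2 markers of another list, and 122 of the 162 ConA+Veh UMIs came from 1 cell with monocyte markers; without the highest cell of each library the levels were 6.21 CPM in Naive and 7.95 CPM in ConA+Veh. In ConA+FICZ over ConA+Veh Lyz2 was 0.92 in the macrophage gate against -0.67 in the neutrophil gate, and against -2.36 in the B gate, the last again with that cell in the denominator. In cells with fewer than 2 markers of another list the macrophage value was -0.02 and the neutrophil value -0.47 (-0.85 to -0.07).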

How the results depend on the processing

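No paired analysis was possible because each group had 1 library. Counts of members past 2-fold were recomputed for 13 comparisons, and 89 of 123 alternative counts were within 1.5 times of the count given. The others follow. Monocyte-marker gate, ConA+Veh over Naive (2): 1 with at least 3 markers, 1 with the cell filter and 4 as UMIs per cell. ConA+TCDD over ConA+Veh (0): 1 by the mean of per-cell levels, with fewer than 2 macrophage markers, and with fewer than 2 progenitor markers. ConA+FICZ over ConA+Veh (0): 2 with fewer than 2 macrophage markers. ConA+FICZ over ConA+TCDD (3): 1 by the mean of per-cell levels, by median-of-ratios and as UMIs per cell, 5 with fewer than 2 macrophage markers. Macrophage gate (1): 0 with thinned gating, without cells of a second class, and by the mean of per-cell levels. Neutrophil gate, ConA+Veh over Naive (1): 0 with at least 3 markers, 2 by the mean, by median-of-ratios, with no minimum and as UMIs per cell; ConA+TCDD over ConA+Veh (2): 0 with thinned gating and by the mean, 1 by median-of-ratios; ConA+FICZ over ConA+Veh (0): 1 with thinned gating; ConA+FICZ over ConA+TCDD (0): 1 with at least 3 markers, without ribosomal and mitochondrial genes, and as UMIs per cell. B gate, ConA+Veh over Naive (2): 0 with thinned gating and without a second class, 1 by the mean, 8 as UMIs per cell; ConA+TCDD over ConA+Veh (1): 0 without a second class and by the mean; ConA+FICZ over ConA+Veh (1): 0 with thinned gating and without a second class.

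Where at least 30 UMIs remained, past-2-fold ratios changed sign in 2 cases. Ctsz in neutrophils, ConA+TCDD over ConA+Veh, was -0.16 by the mean. Lyz2 in B cells, ConA+Veh over Naive, was -0.35 without a second class. Below that minimum, Ctsl in macrophages, ConA+FICZ over ConA+Veh, was -0.15 (-1.82 to 1.32) without a second class, from 6 and 14 UMIs. Under median-of-ratios scaling 90 of 99 member ratios kept their direction. As UMIs per cell 87 of 99 did, and by the mean of per-cell levels 78 of 99. Thinned gating kept 77 of 91, and leaving out cells of a second class 42 of 56. With fewer than 2 macrophage markers 26 of 32 did. At least 3 markers, the cell filter and totals without ribosomal and mitochondrial genes each kept 96 of 99. UMIs per cell, and the splits on macrophage, progenitor and Ace or Treml4 markers, were chosen after seeing the data. The second-class alternative was not run for 5 comparisons and thinned gating for 1, with under 20 cells left. The causes were not tested.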

Other observations

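Endothelial cells, which no comparison above used, held Ctsl at 1262 CPM in Naive and at 626, 962 and 823 CPM in ConA+Veh, ConA+TCDD and ConA+FICZ, and Lgmn at 559, 519, 1180 and 622 CPM, from 43, 69, 8 and 42 cells. In Naive they held 47.1% of all Ctsl UMIs of the library, and their Ctsl level was above that of the monocyte-marker gate by 2.75 (2.35 to 3.15) on the log2 scale. The hepatocyte-marker gate held 163 cells in ConA+FICZ, against 26, 5 and 1 in Naive, ConA+Veh and ConA+TCDD, and gave 12.6% of the Ctsl UMIs of that library. Ctsw, the cathepsin gene of cytotoxic lymphocytes, was at 436, 256, 171 and 209 CPM in the T or NK gate and at 1.80 to 7.73 CPM in B cells. Ctsh ran the other way, at 315, 292, 228 and 240 CPM in B cells and at 0.679 to 4.34 CPM in the T or NK gate.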
